A study of Homo sapiens with 2 samples.

Results

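The genes of ammonia disposal were followed as 9 named genes: CPS1, OTC, ASS1, ASL, ARG1, ARG2, NAGS, GLUL and GLUD1. They were chosen by name for the reactions of their enzymes, with earlier results of these data known. They were found by their Ensembl identifiers among the 60623 gene entries of the count tables. Of the 9 genes, 8 had at least 10 counts over both libraries and could be compared, out of 20431 entries that met this minimum. ARG1 had 0 counts in both libraries. The cells were HepG2, a line from a human hepatocellular carcinoma, recorded with the genotype WT, in 2 groups with 1 library each. Both groups were loaded for 24 h with 1 mM free fatty acids (FFA), a mixture of oleic and palmitic acid bound to bovine serum albumin, as a culture model of steatosis. The FFA library had no 9-cis-RA, and the paper states that the DMSO solvent was matched between its groups. The FFA + 9-cis-RA library, called the RA library below, also received 10 μM 9-cis-retinoic acid, a vitamin A derivative that activates the nuclear receptors RXR and RAR, for 24 h. The comparison asked which transcripts differed when 9-cis-RA was added to fat-loaded cells.

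Without replicates, no SD, standard error or p-value could be given, and a difference between 2 cultures cannot be told apart from an effect of the treatment. Each log2 fold change, FFA + 9-cis-RA against FFA, therefore carries only an exact 95% Clopper-Pearson interval, which covers counting error and compares these libraries rather than the conditions. The libraries held 60821539 and 57669670 fragments assigned to genes, with FFA given first here and wherever a pair of values appears, and both are recorded as Batch 1. As a check of the treatment label, CYP26A1, which encodes a retinoic acid hydroxylase, had 4 and 709 counts, the retinoid receptor gene RARB had 6 and 46, and the retinaldehyde reductase gene DHRS3 had 1126 and 1999. As a check of the cell type, 8 of 8 hepatocyte markers were detected, with a summed level of 14268 and 12166 TPM (transcript level corrected for gene length and library size). Of these, 3 were higher and 5 lower in the RA library, with a median log2 fold change of -0.17. ALB and AFP, the genes of serum albumin and alpha-fetoprotein, were at -0.70 and -0.99. Summed levels of endothelial, Kupffer cell and stellate cell markers were 1.29, 0.41 and 0.66 TPM in the FFA library and 0.87, 0.60 and 0.61 TPM in the RA library. Of 4 cholangiocyte markers CFTR was at 0 counts in both and KRT7 at 0.18 and 0.10 TPM. KRT19 was at 46.9 and 36.8 TPM and SOX9 at 147.1 and 146.6 TPM, and the summed level of the list was 194.2 and 183.5 TPM. In bulk RNA, fewer cells of a kind cannot be told apart from less RNA per cell, and the part of such shifts in the values below was not tested.

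Ammonia is toxic, and the liver removes it by a pair of routes. In the urea cycle, CPS1 joins ammonia and bicarbonate in the mitochondrion once NAGS has made its activator N-acetylglutamate, OTC passes the product to ornithine, ASS1 and ASL build and split argininosuccinate in the cytosol, and ARG1 releases urea and returns ornithine. In the other route GLUL fixes ammonia on glutamate as glutamine, while GLUD1 releases ammonia from glutamate or takes it up. In liver tissue the urea cycle enzymes are found mainly around the portal vein and GLUL around the central vein. HepG2 cells are known to make little urea, and hepatocellular carcinomas often carry a reduced urea cycle.

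In the RA library, 7 of the 8 compared genes had fewer normalized counts than in the FFA library, and ASL had about as many. OTC was the furthest apart, at 30.9% of its FFA level. ASS1, GLUD1, CPS1 and NAGS stood at 58.8% to 64.6%, GLUL at 76.6% and ARG2 at 83.4%. Only OTC passed a log2 fold change of -1, where 4.90% of all compared genes lay, and 0 of the 8 genes passed 1, where 3.37% lay. The counting interval lay below 0 for 7 of the 8 genes, against 25.7% of all compared genes, and above 0 for 0 of them, against 22.5%. The median log2 fold change of the 8 genes was -0.65, with quartiles at -0.75 and -0.35. Over all compared genes the median was -0.020, with quartiles at -0.26 and 0.18. Well-counted genes have narrower intervals, so the 11344 genes with at least the 568 counts of OTC were also taken: 0.846% of them lay below -1, 34.2% had an interval below 0 and the median was 0.0045.

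**Figure D1:**
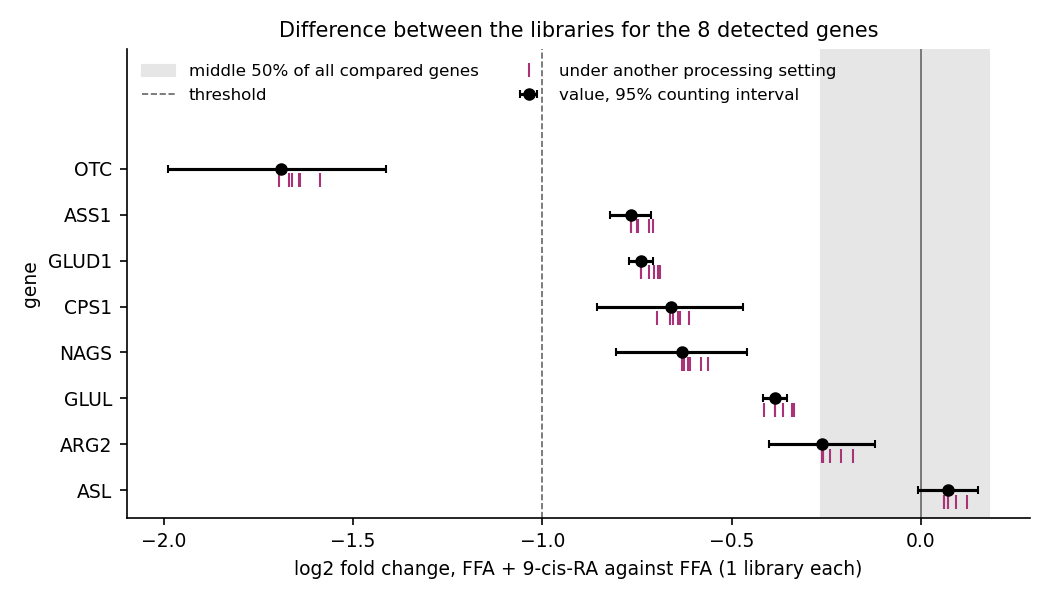
Log2 fold change (FFA + 9-cis-RA against FFA) of the 8 compared genes, as points with exact 95% counting intervals as bars, 1 library per group, with short ticks for the values under other processing settings, a dashed line at -1 and a grey band for the middle 50% of all compared genes. OTC at -1.69 lies past the threshold of -1, ASS1, GLUD1, CPS1 and NAGS lie between -0.77 and -0.63, and only the interval of ASL includes 0.

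CPS1 and NAGS, the genes of the entry step, differed by nearly the same proportion. CPS1 (ENSG00000021826), the gene of carbamoyl phosphate synthetase, lies on the plus strand of chromosome 2 from 210477682 to 210679107 (GRCh38), with 45 exonic blocks. Its counts were 579 with FFA alone and 359 with 9-cis-RA, which after scaling is 63.2% of the FFA level and a log2 fold change of -0.66 (95% counting interval -0.86 to -0.47). NAGS (ENSG00000161653), the gene of the enzyme that makes the activator of carbamoyl phosphate synthetase, lies on the plus strand of chromosome 17 from 44004622 to 44009068 and has 6 exonic blocks. With 709 and 449 counts its log2 fold change was -0.63 (-0.81 to -0.46). Their intervals overlapped, and the ratio of NAGS to CPS1 in TPM was 4.84 in the FFA library and 4.94 in the RA library.

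OTC (ENSG00000036473) encodes ornithine transcarbamylase, the last mitochondrial enzyme of the cycle, and lies on the plus strand of chromosome X from 38352586 to 38421446, with 11 exonic blocks. Its counts were 436 with FFA alone and 132 with 9-cis-RA. The log2 fold change was -1.69 (-1.99 to -1.41), or 30.9% of the FFA level (25.2% to 37.6%). Counted from the lowest, it was gene 281 of 20431, at percentile 1.38. Its interval stood apart from those of the 7 other compared members, the nearest being ASS1 at a distance of 0.92 on the log2 scale. OTC and NAGS had close levels in the FFA library (12.3 TPM for each) and were apart in the RA library at 4.06 and 8.44 TPM.

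ASS1 and ASL, which act one after the other in the cytosol, did not move alike. ASS1 (ENSG00000130707), the gene of argininosuccinate synthase, lies on the plus strand of chromosome 9 from 130444961 to 130501274 and has 18 exonic blocks. With 7614 and 4392 counts its log2 fold change was -0.77 (-0.82 to -0.71). ASL (ENSG00000126522), the gene of argininosuccinate lyase, lies on the plus strand of chromosome 7 from 66075800 to 66094697 and has 12 exonic blocks. The counts were 2541 and 2621 and the log2 fold change 0.07 (-0.0069 to 0.15). The interval included 0 with the size factors used here, but lay above 0 with TMM scaling (log2 fold change 0.09) and with total-count scaling (0.12), so the call for ASL depended on the scaling. The ratio of ASS1 to ASL in TPM was 5.99 in the FFA library and 3.35 in the RA library. A gene entry on the same strand, ENSG00000249319, covers 9.34% of the exonic bases of ASL, and fragments in that overlap were not counted.

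The cytosolic arginase gene ARG1 (ENSG00000118520; plus strand of chromosome 6, 131470832 to 131584332) was not detected. The limit for a gene at 0 is 3 counts, which is 0.0644 TPM in the FFA library and 0.0699 TPM in the RA library. ARG2, which encodes the mitochondrial arginase found in most tissues, was present. ARG2 (ENSG00000081181) lies on the plus strand of chromosome 14 from 67619920 to 67651708. Its counts were 931 and 762 and its log2 fold change -0.26 (-0.40 to -0.12). VTI1B on the opposite strand covers 39.6% of the exonic bases of ARG2, and the strand-specific counting assigns the strands separately. Its level was 19.4 and 17.3 TPM, beside 0 for ARG1.

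GLUD1 and GLUL, the genes of the glutamate and glutamine route, were the most counted of the 9. GLUD1 (ENSG00000148672), the gene of mitochondrial glutamate dehydrogenase, lies on the minus strand of chromosome 10 from 87050202 to 87094843 and has 14 exonic blocks. The counts were 22354 and 13141, for a log2 difference of -0.74 (-0.77 to -0.71). GLUL (ENSG00000135821), the gene of glutamine synthetase, lies on the minus strand of chromosome 1 from 182381704 to 182392206 and has 3 exonic blocks. The counts were 19368 and 14547, for a log2 difference of -0.39 (-0.42 to -0.35). Both intervals lay below 0 and they did not overlap. SHLD2 on the opposite strand covers 12.3% of the exonic bases of GLUD1.

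Among the 28 pairs of compared genes, the counting intervals overlapped in 7 and lay apart in 21. ASS1, GLUD1, CPS1 and NAGS overlapped with one another in all 6 of their pairs, with differences between their log2 fold changes of 0.027 to 0.14, and GLUL overlapped with ARG2. OTC and ASL, the lowest and the highest, overlapped with no other of the 8. The 9 genes together held 54532 counts with FFA alone and 36403 with 9-cis-RA, or 897 and 631 CPM (counts scaled to library size alone). GLUD1, GLUL and ASS1 made up 90.5% and 88.1% of these counts.

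**Figure D2:**
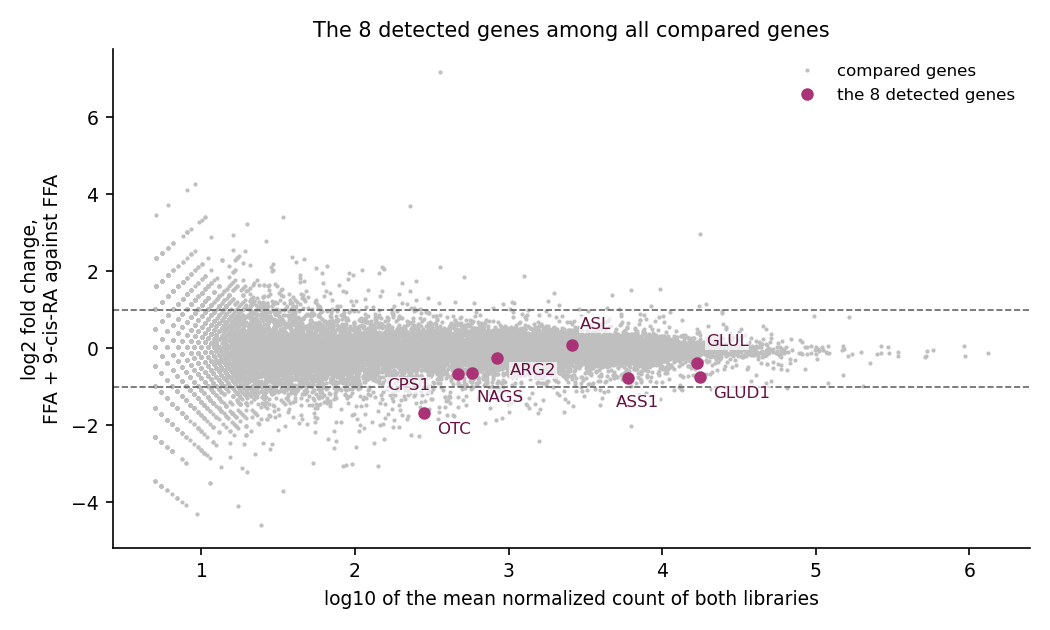
Log2 fold change (FFA + 9-cis-RA against FFA) against the log10 mean normalized count for all 20431 compared genes in grey, with the 8 compared genes of ammonia disposal labelled and dashed lines at 1 and -1. The labelled genes lie below 0 except ASL at 0.07, and only OTC at -1.69 lies below -1.

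Levels were compared between genes in TPM, which was computed from the deposited counts and gene lengths. In the FFA library GLUD1 was highest with 282 TPM, followed by ASS1 with 120.2, GLUL with 102, ASL with 20.1, ARG2 with 19.4, OTC and NAGS with 12.3 each and CPS1 with 2.54. By their exact 95% Poisson intervals, the neighbours ASL and ARG2, and OTC and NAGS, did not differ beyond counting error there. In the RA library the order was GLUD1 with 180, GLUL with 83.3, ASS1 with 75.2, ASL with 22.5, ARG2 with 17.3, NAGS with 8.44, OTC with 4.06 and CPS1 with 1.71 TPM, and the counting intervals of no neighbours overlapped. GLUL and ASS1 thus exchanged places. CPS1, which is among the most abundant mitochondrial proteins of the liver, had the lowest detected level of the set in both libraries, and CAD, which carries the cytosolic carbamoyl phosphate synthetase of pyrimidine synthesis, had 14.1 times the TPM of CPS1 in the FFA library and 23.4 times in the RA library. The deposited lengths cover all exons of a gene, and with the lengths of principal transcripts, an alternative chosen after seeing the data, GLUD1 had 350 TPM, ASS1 232, GLUL 219, ASL 64.3, ARG2 21.7, NAGS 15.5, OTC 13.1 and CPS1 4.74 in the FFA library. Only NAGS and OTC exchanged places under that length, but ASL and ARG2 were then no longer close. The ratio of CAD to CPS1 depends on the lengths used and was not recomputed with those of principal transcripts.

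**Figure D3:**
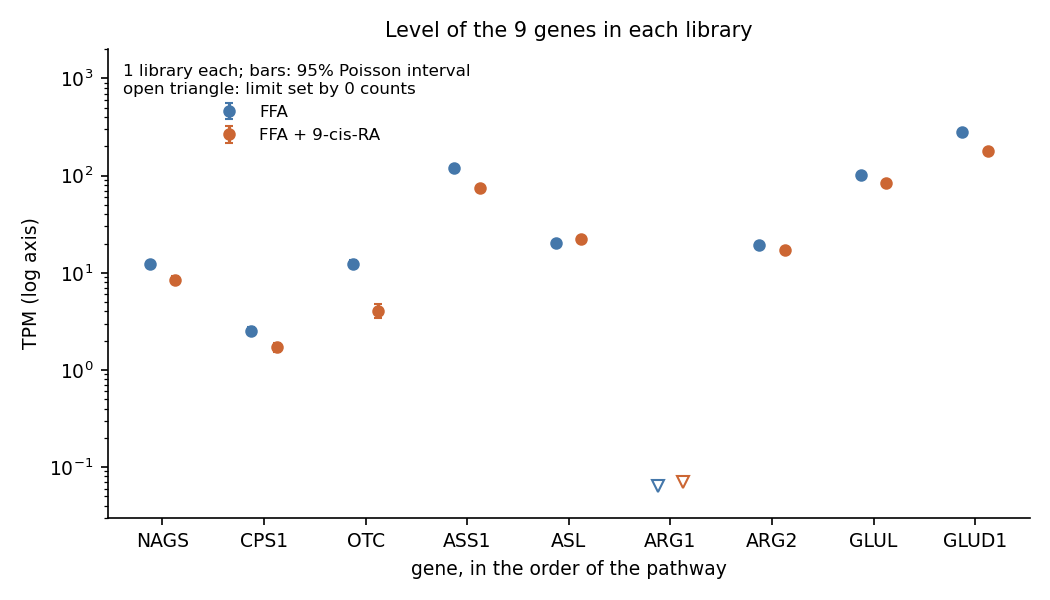
Level of each of the 9 genes in TPM on a log axis, 1 point per library, with exact 95% Poisson intervals of the counts as bars (often smaller than the point), and ARG1 drawn at the limit that a count of 0 allows. GLUD1 was highest at 282 TPM in the FFA library and 180 TPM in the RA library, and CPS1 was lowest of the detected genes at 2.54 and 1.71 TPM.

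Several of the genes have near-identical copies, and fragments that map to more than 1 place were not counted. Of 14 ASS1 pseudogenes 8 had counts, together 55 and 57, which is 0.722% and 1.30% of the ASS1 counts. The copies of GLUD1 had 213 and 185 counts, 0.953% and 1.41% of the GLUD1 counts: GLUD2 had 66 and 30, GLUD1P3 134 and 150, and GLUD1P2 13 and 5. ASLP1 had 49 and 46 counts and GLULP4 had 1 and 0. In GENCODE v29 transcripts, 11.7% of the 100-base words of GLUD1 and 12.4% of those of ASL also occurred in transcripts of other genes, and none of those of OTC, ASS1, CPS1, NAGS and ARG2. Of the 50-base words, 23.7% were shared for GLUD1, 14.8% for ASL, 5.55% for ASS1, 1.29% for CPS1, 0.720% for GLUL and none for OTC, NAGS and ARG2. All shared words of ASL came from 1 other gene, AC068533.4, and not from ASLP1. They need not mark a copy elsewhere, since the same-strand entry ENSG00000249319 covers 9.34% of the exonic bases of ASL. Whether AC068533.4 is that entry was not tested. The shared words of CPS1 were spread over 289 other genes.

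Since 9-cis-RA is a nuclear receptor ligand, the stretches before the start sites were searched for the hexamer of which RXR heterodimers bind a pair. The word AGGTCA was looked for on both strands, as was the variant GGGTCA, then the word AGTTCA and its variant GGTTCA. Matches of these 4 words can share at most 1 base. The RefSeq promoter windows (GRCh38.p14, 250 bases before to 50 after a start site) covered all 9 genes with 13 windows. A hexamer lay in 4 of the 13 windows (30.8%), of CPS1, NAGS and OTC, while 38.6% of 35116 windows of this length hold one. No window of the 9 genes held a direct repeat with a spacing of 1, 2 or 5 bases, which 0.131%, 0.0399% and 0.0883% of all windows hold. Direct repeats with other spacings, and pairs on opposite strands, were not searched. A match describes letters and not a bound site. The first window with a match is shown for each of these 3 genes, since no other gene of the set holds the searched letters (a second CPS1 window, from base 210519468 of chromosome 2, holds 3 and is not printed). The stretches are given on the plus strand and end at the base before the earliest annotated start, with the hexamers in capitals.
OTC, chrX:38352354-38352544: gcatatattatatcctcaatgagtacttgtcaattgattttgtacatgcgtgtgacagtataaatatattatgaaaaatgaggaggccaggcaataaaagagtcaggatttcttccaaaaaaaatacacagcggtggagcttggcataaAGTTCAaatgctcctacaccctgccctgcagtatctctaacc
CPS1, chr2:210477435-210477681: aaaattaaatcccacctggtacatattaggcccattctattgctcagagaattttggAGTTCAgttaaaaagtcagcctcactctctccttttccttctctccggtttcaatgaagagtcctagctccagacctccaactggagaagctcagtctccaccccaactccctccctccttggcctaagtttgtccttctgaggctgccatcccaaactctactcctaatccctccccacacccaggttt
NAGS, chr17:44004372-44004545: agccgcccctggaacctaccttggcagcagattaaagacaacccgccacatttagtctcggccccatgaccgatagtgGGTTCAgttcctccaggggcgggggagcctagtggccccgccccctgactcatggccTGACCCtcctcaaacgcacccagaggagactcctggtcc
Distances here are counted from the RefSeq start site of each window, which lies past the end of the printed stretch. In OTC the hexamer AGTTCA begins 101 bases before that site, at base 150 of the stretch. In CPS1 the same word begins 193 bases before its site, at base 58. NAGS holds GGTTCA, beginning 172 bases before its site (base 79), and GGGTCA on the reverse strand, beginning 115 bases before it (base 136). ASS1, GLUD1, GLUL, ASL, ARG1 and ARG2 held none of the words in their windows.

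Genes around the members were taken from 4 lists of 69 genes, 65 of which could be compared. Of these, 29 were higher and 36 lower in the RA library, 2 lay above 1 and 2 below -1, and 19 intervals lay above 0 and 32 below 0. Over all compared genes 3.37% lay above 1 and 4.90% below -1, with 22.5% of intervals above 0 and 25.7% below. The median log2 fold change of the 65 genes was -0.071, beside -0.65 for the 8 members and -0.020 for all compared genes. The plot of the 4 lists shows each gene.

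The transporter genes listed with the urea cycle did not follow most of its enzymes, while the enzyme genes of the same list were split. Of 15 genes 13 were compared, 11 with a positive and 2 with a negative log2 fold change, 7 intervals lay above 0 and 2 below, and the median was 0.21. The 2 genes above 1 had few counts: RHCG, an ammonia transporter gene, had 1 and 9 (2.34, interval 0.35 to 8.65), and SLC3A1, a subunit of a dibasic amino acid transporter, had 3 and 11 (1.61, -0.018 to 4.38). AQP3, an aquaglyceroporin gene, was at 0.59 (400 and 591 counts), and CA5A, the mitochondrial carbonic anhydrase that supplies bicarbonate to carbamoyl phosphate synthetase, was at -0.46 (1127 and 805 counts). The other negative gene was the sirtuin gene SIRT5 at -0.34 (669 and 517 counts), while CA5B, another carbonic anhydrase gene, was at 0.28 (562 and 669 counts). The ornithine carrier gene SLC25A15 was at 0.09 (3729 and 3884 counts), and the cationic amino acid transporter gene SLC7A1 was at 0.27 (11234 and 13252 counts).

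In glutamate and glutamine metabolism 26 of 27 genes were compared, 9 higher and 17 lower, with 8 intervals above 0 and 15 below and a median of -0.10. The 2 genes below -1 were SLC25A18, a mitochondrial glutamate carrier gene, with 122 and 51 counts (-1.21, -1.73 to -0.75), and GLUD2, the intronless copy of glutamate dehydrogenase, with 66 and 30 counts (-1.08, -1.78 to -0.47). SLC38A5, a glutamine transporter gene, was at -0.72 (16923 and 10093 counts).

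In arginine and polyamine metabolism 15 of 16 genes were compared, 4 higher and 11 lower, none past 1 or -1, with 3 intervals above 0 and 10 below and a median of -0.16. GATM and GAMT, whose enzymes make creatine from arginine and glycine, were at -0.95 (129 and 65 counts) and -0.61 (6968 and 4487 counts). DDAH2, which encodes an enzyme family member linked to methylarginine breakdown, was at -0.47, and SAT1, which encodes the acetylating enzyme of polyamine breakdown, was at -0.45. Among the 11 glutamine amidotransferase and pyrimidine genes, all of which were compared, 5 were higher and 6 lower, none was past 1 or -1, 1 interval lay above 0 and 5 below, and the median was -0.037. The pyrimidine synthesis genes DHODH, CTPS2 and UMPS were at -0.20, -0.20 and -0.14, and GMPS, of guanine nucleotide synthesis, was at -0.09. CAD had the 1 interval above 0, at 0.07 (0.021 to 0.12) with 6346 and 6539 counts.

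**Figure D4:**
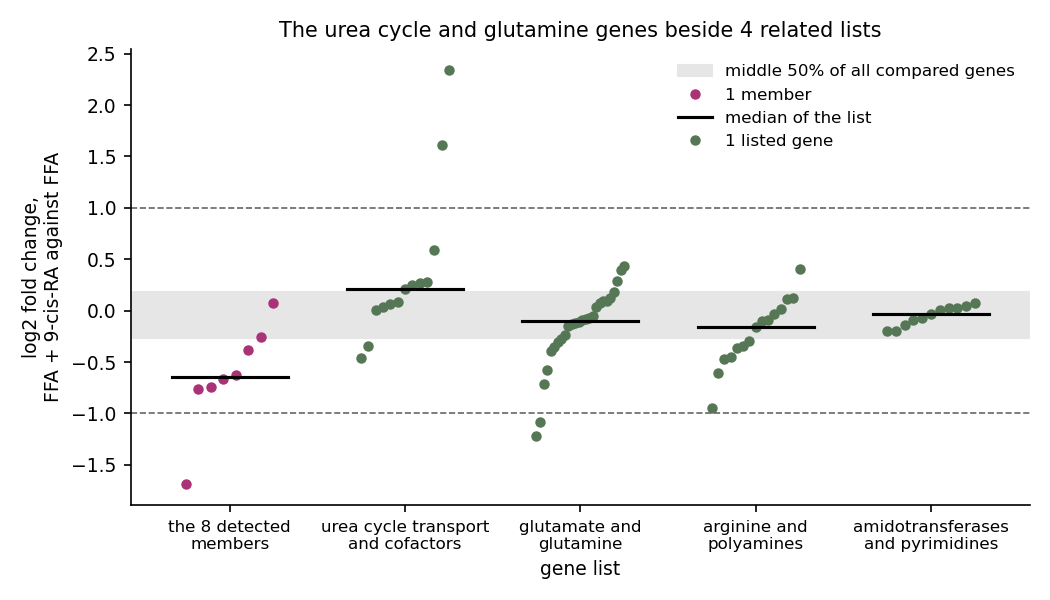
Log2 fold change (FFA + 9-cis-RA against FFA) of each compared gene of the members and of 4 related lists, 1 point per gene, with the median of each list as a line, dashed lines at 1 and -1 and a grey band for the middle 50% of all compared genes. The member median is -0.65, against 0.21 for transport and cofactors, -0.10 for glutamate and glutamine, -0.16 for arginine and polyamines and -0.037 for amidotransferases and pyrimidine synthesis.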

How the data were processed

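RNA of 2 libraries of HepG2 cells, 1 per group (FFA and FFA + 9-cis-RA), was analysed. Per the labels, stranded libraries were made from poly(A) RNA. Fragment counts without normalization were deposited by the authors for each gene, with each gene's exonic length in bases, made with featureCounts version 2.0.1, which took pairs mapped at both ends, used the reverse strand (setting 2) and checked the fragment length. Multi-mapping fragments and those shared by overlapping genes were left out, so genes with copies are undercounted. The build is GRCh38 per the submitters' processing notes; the aligner and annotation release are not given in the sources used here.

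The counts were scaled with the size factors of DESeq2 1.42.0 (R 4.3.3), and log2 fold changes used normalized counts plus 1 over genes with at least 10 counts, with a threshold of 1. With 1 library per group no model was fitted. Intervals are exact (Clopper-Pearson, 95%), and both intervals and the limit of 3 counts cover counting error only. Scripts ran in Python 3.11.15 (scipy 1.17.1, statsmodels 0.14.6, numpy 2.4.6, pandas 2.3.3 and matplotlib 3.10.9), and were tested on simulated data. Symbols were found for 60295 of 60623 entries. Positions are those of the deposited tables. Overlaps between genes were taken from the deposited exons, and lengths of principal transcripts and transcript words from GENCODE v29, where 2 of the 9 gene spans were the same as in the tables.

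The members and lists were chosen with earlier results of these data known. From each list the genes past the threshold were named and, where these were fewer than 4, the genes with the largest difference among those with at least 100 counts, up to 4. Of the genes this rule names, 1 is not reported here. SLC25A15, SLC7A1, SIRT5, CA5B, CAD, the 8 hepatocyte markers, CFTR, KRT7, KRT19 and SOX9 were named after their values were seen. Alternatives were TMM (edgeR 4.0.16) and total-count scaling, pseudocounts of 0.1 and 5, no count minimum and one of 50, and removal of trends on length and expression (loess, span 0.3). The experiments on proteins, reporters and lipids were not analysed here.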

Additional observations from a re-analysis of the deposited data

How the results depend on the processing

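All 8 compared members kept their sign under the alternatives that apply to single genes: of 48 recomputed log2 fold changes, 42 stayed within the main counting interval, 6 moved beyond it (GLUD1, GLUL and ASS1, whose intervals are narrow) and 0 reversed. OTC ranged from -1.70 to -1.59 and was the only member past -1 throughout, and the member median ranged from -0.65 to -0.60. With TMM or total-count scaling the interval of ASL lay above 0, so that 1 member had an interval above 0 in place of 0. Over all genes, 689 lay above 1 and 1002 below -1. With a pseudocount of 5 these counts were 341 and 594, with at least 50 counts 153 and 361, and with no count minimum 3771 and 2493. No scaling moved the median of all genes by more than 0.049. No paired analysis was possible because each group has 1 library. No setting can replace the replicates: the spread between cultures was not measured.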

Other observations

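Genes of the liver lobule's zones were also counted without the members. Of 7 periportal genes 6 were compared, 2 higher and 4 lower in the RA library, with a median log2 fold change of -0.37. PCK1, the gene of the cytosolic enzyme that commits oxaloacetate to glucose synthesis, had 40 counts with FFA alone and 138 with 9-cis-RA (log2 fold change 1.79, interval 1.30 to 2.36), while TAT, the tyrosine aminotransferase gene, had 259 and 151 (-0.75, -1.05 to -0.46). All 9 perivenous genes were compared, 6 higher and 3 lower, none past 1 or -1, with a median of 0.081. CYP1A2 was at -0.52 (-1.04 to -0.029), OAT, the ornithine aminotransferase gene, at 0.29, LGR5 at 0.26 and AXIN2 at 0.21.

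Among 12 regulators of urea cycle genes 11 were compared, with 6 intervals above 0, 5 below and a median of 0.083. Over all compared genes 22.5% of intervals lay above 0 and 25.7% below. Among genes with at least 568 counts these shares were 33.4% and 34.2%. NR1H4, the gene of the bile acid receptor FXR, had 2305 and 1260 counts (-0.84, -0.94 to -0.74), RXRA was at -0.44 (8291 and 5978 counts), FOXO3 at 0.46 (1269 and 1710) and NR3C1, the glucocorticoid receptor gene, at 0.33 (3937 and 4869).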
